A study of Mus musculus with 15 samples.

Results

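The genes described here encode the machinery that releases neurotransmitter from synaptic vesicles. They were taken by symbol alone: every synaptotagmin (Syt), syntaxin (Stx), vesicle-associated membrane protein (Vamp), synaptosomal-associated protein (Snap), syntaxin-binding protein (Stxbp), Rims, Unc13, complexin (Cplx), synapsin (Syn1 to Syn3) and Sv2 gene listed in the tables. This gave 70 of the 25080 listed symbols. The families were chosen with earlier results of these data known. Of the 70, 64 reached 1 TPM in at least 3 libraries and were tested, among 13471 such genes in all. TPM is a share of a library's transcripts corrected for their length, so levels of different genes can be set side by side. The 6 that stayed under this limit were Cplx4, Stx11, Stx19, Syt8, Unc13d and Vamp5. Cplx3 with 3 libraries and the pseudogene Stxbp3-ps with 4 were just inside, and Vamp5 with a highest value of 0.76 TPM and Unc13d with 0.36 TPM were outside.

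At a synapse, a vesicle is docked at the active zone, a protein scaffold of the presynaptic membrane. The vesicle SNARE protein synaptobrevin (Vamp1, Vamp2) then zippers with the membrane SNAREs syntaxin-1A (Stx1a) and SNAP-25 (Snap25), and Munc13 (Unc13 genes) and RIM proteins prepare this assembly. Complexins clamp and assist it, and calcium binding to synaptotagmin triggers fusion. Synapsins tether vesicles in the reserve pool, and Sv2 proteins are glycoproteins of the vesicle membrane. Most of the remaining syntaxins, Vamp and Snap genes are grouped here by their part in membrane traffic between the Golgi, endosomes, lysosomes and the plasma membrane. The grouping does not exclude a part in vesicle release. Relay neurons of the thalamus release glutamate and carry the Vglut2 transporter (Slc17a6).

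RNA depleted of ribosomal RNA was measured in whole dissected thalamus of 2- to 4-month-old male mice. Animals labelled cKO carried a floxed Maged1 and Vglut2-Cre, which deletes Maged1 in Vglut2 neurons and leaves it in all other cells of the tissue. The controls, Maged1 WT in the sample titles, are described both as floxed littermates and as animals with the driver and an intact Maged1. All animals had 3 days of saline habituation and then 5 days of cocaine at 20 mg/kg or of saline. By their titles, 4 of the 14 libraries came from cKO and 4 from control animals given saline, and 2 from cKO and 4 from control animals given cocaine. A further sample of the cKO animals given cocaine was not analysed here. In such tissue, fewer cells of a type and less RNA per cell cannot be told apart.

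The labels need a caution. Scaled Maged1 levels (TPM divided by a trimmed-mean, or TMM, factor per library) were 152, 166, 149.7 and 151 under the label control saline, 78.0, 76.6, 68.6 and 64.5 under cKO saline, 58.5, 87.9, 77.3 and 71.3 under control cocaine, and 152 and 174 under cKO cocaine. After saline the levels follow the labelled genotypes. After cocaine they go against them, since the libraries labelled control hold the low values and those labelled cKO the high ones. For 4 saline libraries the genotype tag also names the other genotype than the title. Genotypes are therefore called labelled throughout, and the comparison of all 6 cocaine with all 8 saline libraries, which does not use the genotype, is given first. Of the marker lists, the 8 thalamic neuron genes were all detected, with summed levels of 443 to 675 scaled TPM over the 14 libraries, and 8 oligodendrocyte genes summed to 1457 to 2558. The sequencing depth of each library is unknown from TPM values.

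In thalamus labelled control saline, the core of the release apparatus was among the most abundant transcripts. Snap25 had the highest level of the 64 genes, at 449.6 ± 39.8 scaled TPM (SD, n = 4), followed by Vamp2 at 221 ± 10.4. Cplx1 and Syt1 came next at 175 ± 14.8 and 173 ± 8.46, and these neighbours overlapped between libraries. Syt11, a synaptotagmin that does not bind calcium, stood at 126 ± 2.42, Sv2a at 123 ± 6.69 and Snap47 at 110.4 ± 2.58. In all, 8 of the 64 genes were at 100 scaled TPM or more, against 339 of all 13471 genes tested. The median over the 64 genes was 12.3, against 7.14 over all genes tested, and 28 of the 64 lay under 10. In the order of levels, 52 genes overlapped in range with the next lower one.

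Within most families 1 or a few members held most of the transcripts. Among the complexins Cplx1 was followed by Cplx2 at 29.7 ± 5.07 and Cplx3 at 0.567 ± 0.334. Of the calcium sensors, Syt2 reached 5.72 ± 1.24 beside Syt1, and Vamp1 reached 52.1 ± 3.05 beside Vamp2. Stx1a stood at 18.3 ± 1.49. Syn2 and Syn1 overlapped, at 88.5 ± 8.11 and 84.0 ± 5.11, whereas Syn3 stood at 2.57 ± 0.285. Rims3, a short RIM isoform, had the highest level of the priming and active zone genes at 93.7 ± 4.59, above Rims1 at 27.9 ± 1.55 and Unc13a at 27.4 ± 1.42. The clathrin assembly protein AP180 (Snap91), which shares only its symbol with the SNAREs, was at 69.3 ± 3.77.

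**Figure D1:**
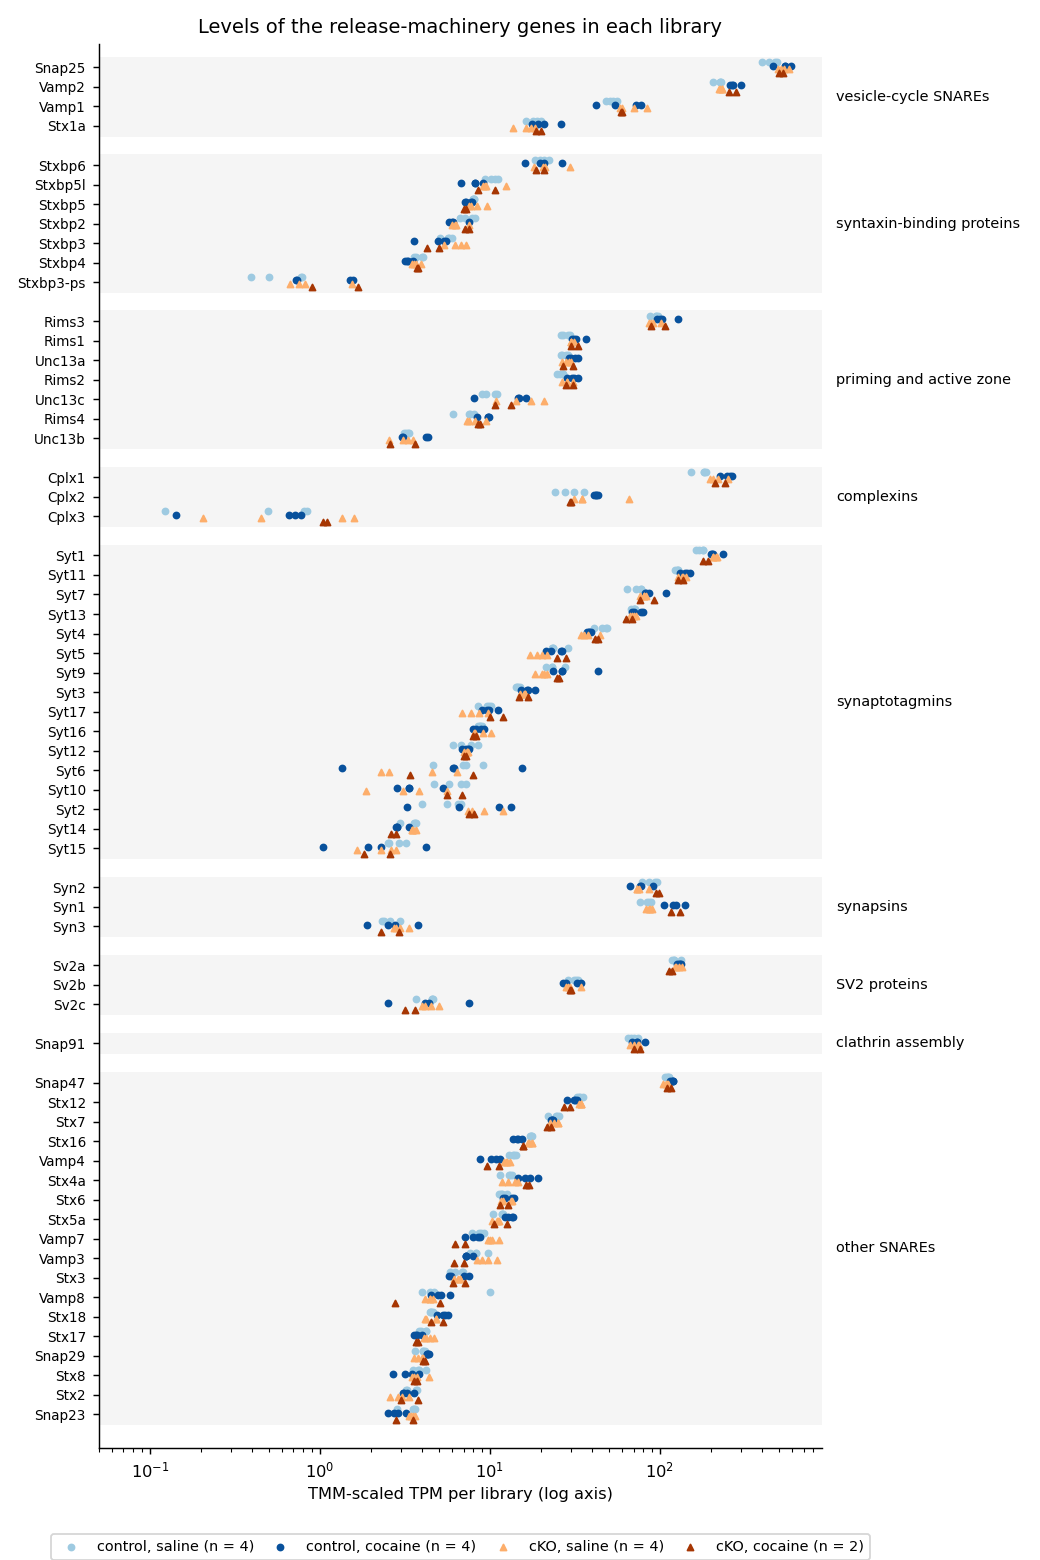
Level of 62 of the 64 genes in every library, in TMM-scaled TPM on a log axis. Each point is 1 library, colours and shapes mark the 4 labelled groups, and genes are grouped by role and ordered by their level in control saline. Snap25 is highest in all groups, and the points of Syt6, Cplx3 and Syt2 are the most spread within groups.

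The spread between libraries of a group differed between members. On the log2 scale the within-group SD had a median of 0.122 over the 64 genes and 0.108 over all genes tested. It was highest for Syt6 (0.843), Cplx3 (0.559) and Syt2 (0.521) and 0.338 for Unc13c. Syt6 ranged from 1.36 to 15.5 scaled TPM within control cocaine alone. Syt2 was at 3.25, 13.4, 11.3 and 6.57 in the 4 control cocaine libraries, and Vamp1 at 42.0, 77.4, 72.0 and 54.2 in the same order. The first of these libraries held the lowest value of both genes and of Unc13c, at 8.04.

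Cocaine against saline over all libraries compared the treatments with the genotype labels left out. Those labels were not balanced between the treatments, so a change here need not be shared by both labelled genotypes. Syn1 rose most, by 0.52 on the log2 scale, with Vamp2, Cplx1, 3 Rims genes and Syt7 also higher. Vamp3, Vamp4, Vamp7, Stx12 and Stx16, among the SNAREs grouped here under other membrane traffic, fell. In total 15 of the 64 genes (23.4%) were higher and 11 (17.2%) lower at an adjusted p under 0.05 (limma on log2 of scaled TPM plus 0.5, Benjamini-Hochberg over 13471 genes). Over all genes tested, 17% were higher and 14.2% lower, so the share called among these genes is near the background. Syn1, Vamp2 and Stx4a upward and Stx16 downward were the only calls also made under each genotype label alone. The median log2 fold change was 0.04 over the 64 genes and 0.01 over all genes. With a minimum of 0.5 on the log2 scale, 1.07% of all genes were higher and 1.01% lower, and of the 64 genes Syn1 alone passed. TPM as deposited, without the TMM scaling, were lower after cocaine by 0.34 on the log2 scale for the median gene of all tested, and each change given here is relative to that shift. On the deposited TPM, 0 of the 64 genes were higher and 47 lower, where 0.854% of all genes tested were higher and 80% lower. There Syn1 was at 0.13 (adjusted p = 0.0946), and Vamp2, Cplx1 and Stx4a were at -0.12, -0.08 and -0.03.

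The calls differed in how far they rested on 1 library. In 14 fits that each left out 1 library, Syn1, Vamp2, Stx4a, Cplx1, Stxbp3, Stx12, Stx16, Syt14, Vamp3, Vamp4 and Vamp7 passed in 14 of 14. Rims4 passed in 11, Rims1 and Snap47 in 7, Stxbp5l in 6, and Syt9 in 4. The other called genes, among them Syt7, Rims2, Stxbp5, Snap23, Snap29, Stx5a, Stx17 and Stx18, were not followed singly through these fits. The count of higher genes went down to 8 without the third control saline library, the third or the fourth control cocaine library or the second cKO cocaine library. It was 9 without the first control saline, the second control cocaine or the fourth cKO saline library.

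**Figure D2:**
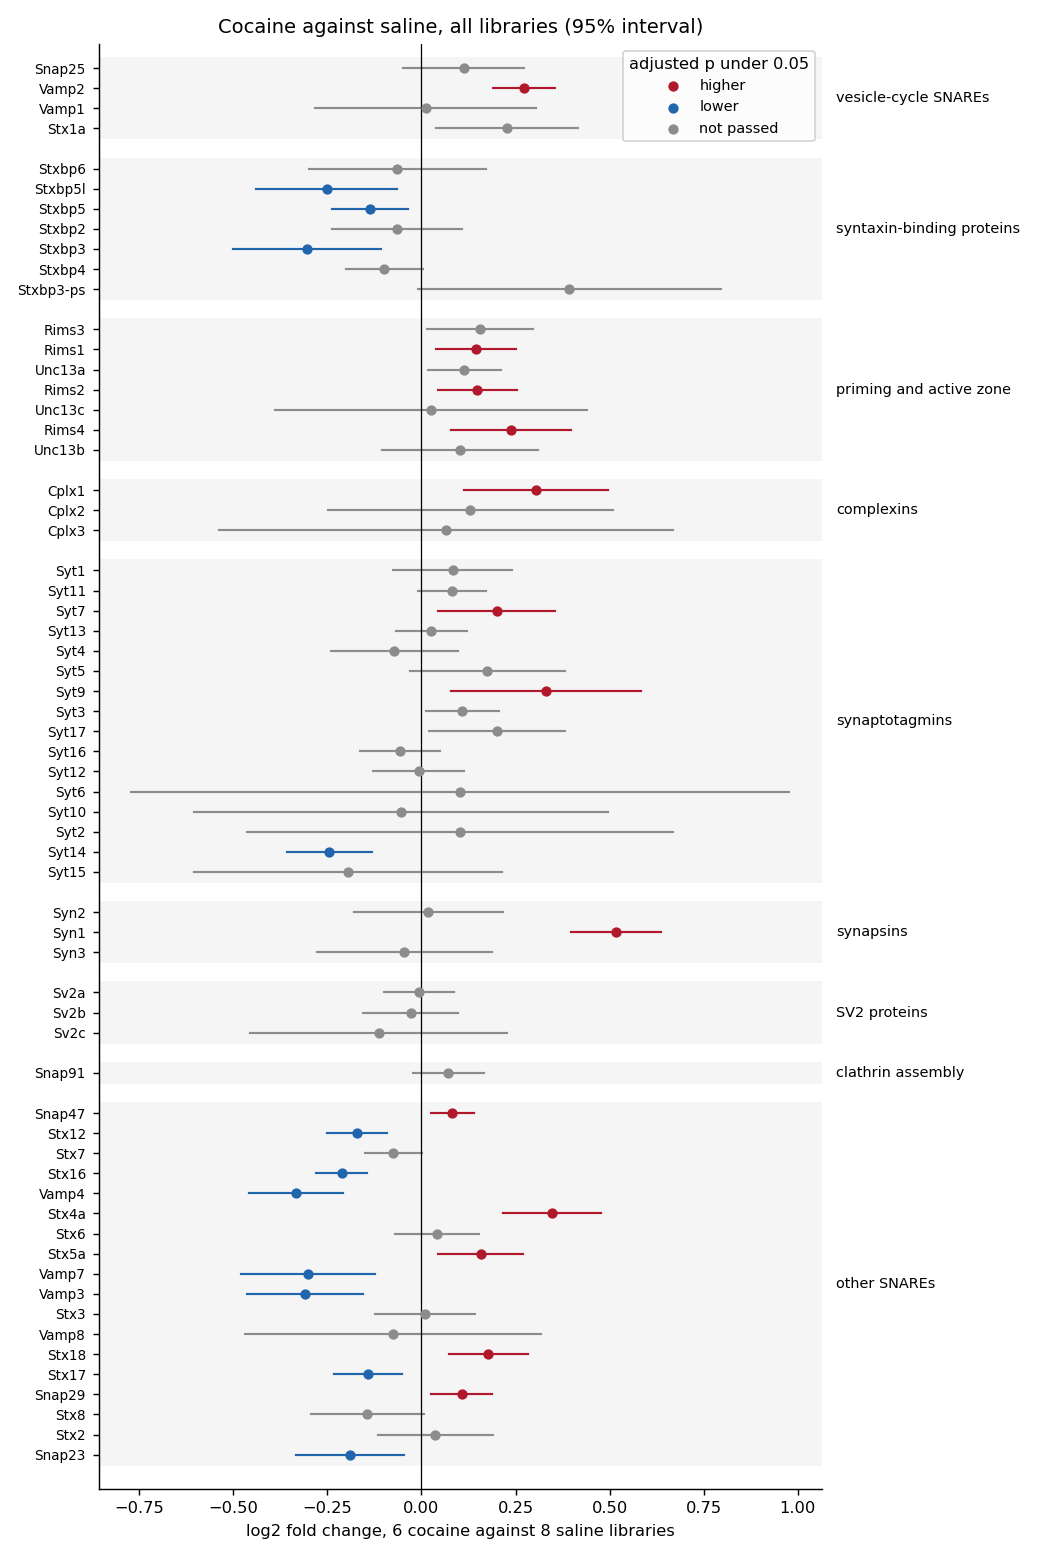
Log2 fold change of 62 of the genes between the 6 cocaine and the 8 saline libraries, with its 95% interval, grouped by role. Values are from TMM-scaled TPM. Red points were higher and blue points lower at an adjusted p under 0.05 and grey points did not pass. The vesicle-cycle SNAREs drawn, all 7 priming genes and all 3 complexins lie to the right of 0, and the lower calls are 7 other SNAREs, 3 syntaxin-binding proteins and Syt14.

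Of the 3 synapsins, which bind vesicles to each other and to actin, Syn1 was the one that passed. Its scaled TPM were 76.9, 88.6, 83.9 and 86.5 under the label control saline, 89.9, 86.8, 87.8 and 83.4 under cKO saline, 106, 124, 119 and 140.5 under control cocaine, and 116 and 132 under cKO cocaine. Every cocaine library was above every saline library, a separation that 5.77% of all genes tested showed in this direction. The log2 fold change was 0.52 (SE 0.056, adjusted p = 1.38e-05). Syn2 and Syn3 were at 0.02 and -0.05 and did not pass. Syn1 lies on the minus strand of chromosome X (GRCm38, 20860511 to 20921004).

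Among the SNAREs of the synaptic vesicle cycle, Vamp2 rose. Vamp2, the main synaptobrevin, was at 206, 225, 226 and 227 under the label control saline, 233, 226, 232 and 223 under cKO saline, 258, 269.9, 267 and 299 under control cocaine, and 255 and 282 under cKO cocaine. The cocaine libraries were again all above the saline ones, and the log2 fold change was 0.27 (SE 0.039, adjusted p = 0.000127). Snap25, Stx1a and Vamp1 did not pass, at 0.11 (SE 0.075, adjusted p = 0.282), 0.23 (SE 0.088, adjusted p = 0.0654) and 0.01 (SE 0.14, adjusted p = 0.962).

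Priming, docking and clamping genes moved in 1 direction where they passed. All 7 measured Rims and Unc13 genes had a positive estimate, and 3 passed: Rims4 at 0.24, Rims2 at 0.15 and Rims1 at 0.14 (adjusted p = 0.0246, 0.0334 and 0.0396). Unc13a, encoding the main Munc13 of glutamate synapses, was at 0.11 (SE 0.045, adjusted p = 0.0719). Cplx1 was at 181, 153, 181 and 186 under the label control saline, 250.5, 219, 206 and 197 under cKO saline, 226, 267, 257 and 247 under control cocaine, and 212 and 241 under cKO cocaine. The control saline libraries were below all others, while the cKO saline libraries overlapped the cocaine libraries, and the log2 fold change was 0.30 (SE 0.089, adjusted p = 0.0178).

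Among the syntaxin-binding genes, 3 were lower. Stxbp3 (Munc18-3), which serves syntaxin-4 at the plasma membrane, was lower, at -0.30 (SE 0.092, adjusted p = 0.0207), and its pseudogene Stxbp3-ps may share its reads. The tomosyns Stxbp5l and Stxbp5, which bind syntaxin and inhibit priming, were also lower, at -0.25 (SE 0.088, adjusted p = 0.0413) and -0.14 (SE 0.047, adjusted p = 0.0378). Stxbp2, Stxbp4, Stxbp6 and Stxbp3-ps were those that did not pass.

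Of 16 synaptotagmins, 2 were higher and 1 lower. Syt7, a high-affinity calcium sensor, was at 0.20 (SE 0.073, adjusted p = 0.0484) and Syt9 at 0.33 (SE 0.12, adjusted p = 0.0453), with the first control cocaine library at 43.0 scaled TPM and the other 13 between 18.5 and 27.6. Without that library Syt9 was at 0.21 (adjusted p = 0.0494). Syt14, which lacks calcium binding, was lower at -0.24 (SE 0.053, adjusted p = 0.00299). Syt1, the fast calcium sensor, did not pass at 0.08 (SE 0.074, adjusted p = 0.433), nor did any Sv2 gene, whose estimates ran from -0.11 to -0.01.

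The 18 tested SNAREs of other membrane traffic divided into 5 higher, 7 lower and 6 that did not pass. Stx4a, the plasma membrane syntaxin of constitutive and regulated exocytosis outside the active zone, was at 12.9, 13.5, 11.5 and 13.1 under the label control saline, 14.6, 12.8, 11.8 and 14.1 under cKO saline, 14.6, 17.3, 19.1 and 16.0 under control cocaine, and 17.1 and 16.3 under cKO cocaine. Its log2 fold change was 0.35 (SE 0.061, adjusted p = 0.000691), and the ranges overlapped only between the first control cocaine library (14.57) and the first cKO saline library (14.62). Stx18 of the endoplasmic reticulum, Stx5a of the Golgi and the ubiquitous Snap29 rose by 0.18, 0.16 and 0.11, and Snap47 by 0.08. Vamp4, a SNARE of the Golgi and endosomes, was at 13.9, 14.3, 13.6 and 13.0 under the label control saline, 13.2, 12.2, 12.6 and 12.5 under cKO saline, 10.9, 11.5, 10.2 and 8.70 under control cocaine, and 11.3 and 9.62 under cKO cocaine. All cocaine libraries were below all saline libraries, as for 4.87% of all genes in this direction, and the log2 fold change was -0.33 (SE 0.058, adjusted p = 0.000607). Stx16, which pairs with Vamp4 in traffic from endosomes to the Golgi, was at 17.7, 17.5, 17.4 and 17.3 under the label control saline, 16.8, 17.0, 17.8 and 17.7 under cKO saline, 13.8, 15.4, 14.5 and 14.7 under control cocaine, and 15.7 and 15.7 under cKO cocaine. It was separated in the same way, with a log2 fold change of -0.21 (SE 0.032, adjusted p = 0.000195). Stx12, a syntaxin of recycling endosomes, was separated as well, at -0.17 (SE 0.037, adjusted p = 0.00296). Vamp3 (cellubrevin) was lower at -0.31 (SE 0.072, adjusted p = 0.00471) and Vamp7, the SNARE of late endosomes and lysosomes, at -0.30 (SE 0.083, adjusted p = 0.0128). Stx17 of autophagosomes and Snap23, the counterpart of Snap25 outside neurons, were at -0.14 and -0.19 (adjusted p = 0.0199 and 0.0424). Not every SNARE of endosomes was lower: Stx7, Stx8, Vamp8 and Stx6 were at -0.07, -0.14, -0.08 and 0.04 and did not pass.

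**Figure D3:**
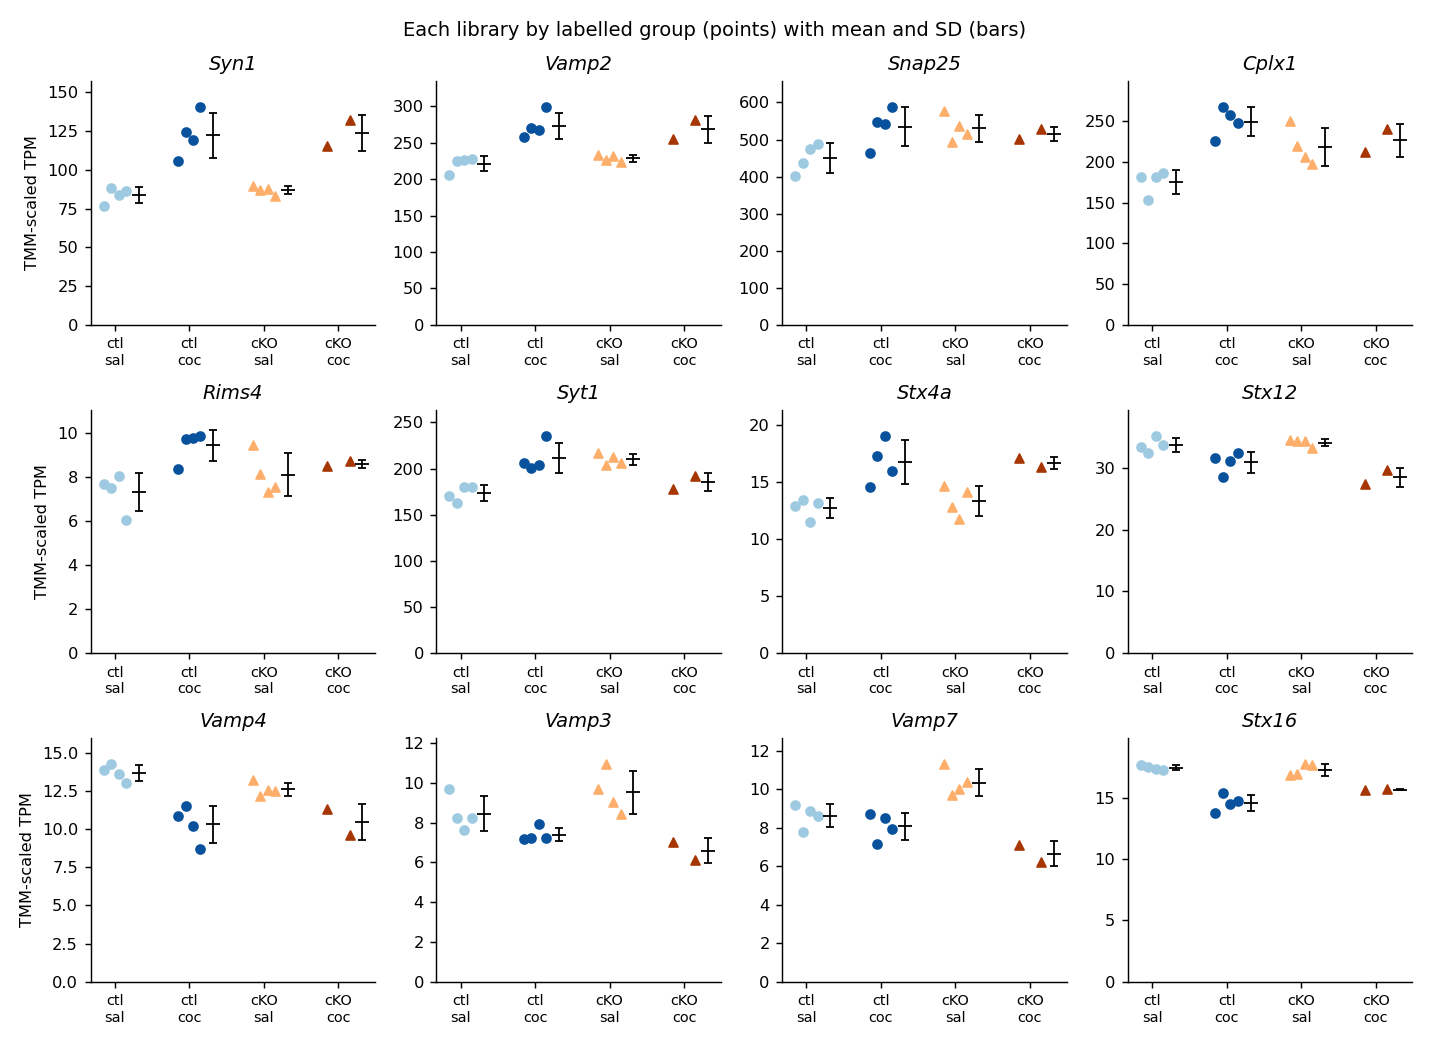
Scaled TPM of 12 of the genes in each library, by labelled group (ctl, control; sal, saline; coc, cocaine), on axes that start at 0, with the mean and SD of each group as a bar beside its points. Syn1 and Vamp2 in cocaine libraries lie above all saline libraries, Vamp4 and Stx16 lie below, and Syt1 and Vamp7 differ in pattern between the labelled genotypes.

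The direction of the change went with the base composition of the transcripts. The 15 higher genes had a median GC content of 53.2% in their longest annotated transcript and 10 of the lower ones (Vamp7 had no annotated length) 43.7%, against 49.2% over 63 of the 64 genes. Over all genes the same order was seen, at 54.3% for higher, 43.1% for lower and 49.7% for all. Across the 63 genes, which are not independent replicates and share the same libraries, GC content and log2 fold change had a Pearson r of 0.55 and a Spearman rho of 0.57, and over 13186 genes 0.3 and 0.5. When each library's smooth trend with GC content and length was removed, 9 of the 63 genes in that fit were higher and 4 lower, where 10.3% of 13186 genes were higher and 7.94% lower. Syn1 (0.40), Stx4a (0.27), Vamp2 (0.20), Stx5a (0.18), Snap29 (0.16) and Rims1 (0.15) kept their call, and Snap25 (0.26) and Snap91 (0.14) were then called as well. Stx16 (-0.20), Vamp4 (-0.23) and Vamp3 (-0.21) remained lower, joined by Stx8 (-0.22). The rises of Cplx1, Rims2, Rims4, Syt7, Syt9, Stx18 and Snap47 and 7 of the 10 falls with a known length no longer passed, and Vamp7 was not in that fit. With the GC trend alone removed, 9 were higher (background 10.6%) and 3 lower (background 7.5%), and with the length trend alone 14 (background 16.3%) and 9 (background 14.4%), both chosen after seeing the data.

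**Figure D4:**
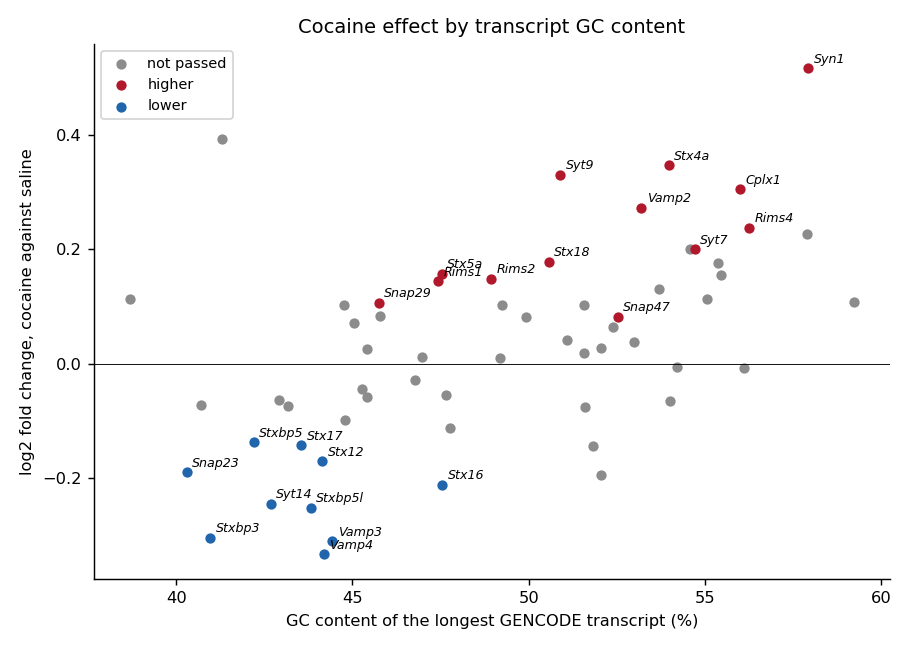
GC content of the longest GENCODE transcript of 61 genes against their log2 fold change between all cocaine and all saline libraries. Higher genes (red) lie at 45.8% to 57.9% GC and lower genes (blue) at 40.3% to 47.6%.

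The promoters of the gene that rose most, of the largest rise among the other SNAREs and of the gene that fell most are shown so that their sequence can be read beside these values. They come from RefSeq (GRCm38.p6), on the strand of the gene, and hold the bases ahead of its annotated start that lie in no annotated exon of that strand. The RefSeq start of Stx4a lies inside its longer GENCODE gene. Capitals mark matches to 1 of 3 motifs on either strand: the cyclic AMP response element TGACGTCA, the GC box GGGCGG and the E-box CACGTG.
Syn1, chrX:20921005-20921168, minus strand: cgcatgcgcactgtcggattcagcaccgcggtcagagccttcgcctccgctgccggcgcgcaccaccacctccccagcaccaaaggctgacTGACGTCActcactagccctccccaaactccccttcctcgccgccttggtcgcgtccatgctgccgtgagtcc
Stx4a, chr7:127841558-127841763, plus strand: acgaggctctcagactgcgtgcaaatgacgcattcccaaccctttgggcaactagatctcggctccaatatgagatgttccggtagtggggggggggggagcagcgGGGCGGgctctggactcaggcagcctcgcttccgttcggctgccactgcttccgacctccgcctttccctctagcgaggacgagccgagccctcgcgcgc
Vamp4, chr1:162570265-162570514, plus strand: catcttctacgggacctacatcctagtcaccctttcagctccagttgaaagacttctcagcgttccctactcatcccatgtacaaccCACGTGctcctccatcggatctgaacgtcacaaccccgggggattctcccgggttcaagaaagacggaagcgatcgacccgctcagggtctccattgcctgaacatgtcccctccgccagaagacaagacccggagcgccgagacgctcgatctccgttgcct

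The 164 bases of Syn1 hold 1 full cyclic AMP response element and have 67.1% GC, the 206 bases of Stx4a hold a GC box and have 64.6%, and the 250 bases of Vamp4 hold an E-box and have 57.2%. A further annotated promoter of Vamp4, not printed, holds a GC box and no E-box and has 76.0% GC. Of 61 promoters annotated for 48 of the 64 genes, 2 (3.28%) held TGACGTCA in the 250 bases before the start, those of Syn1, which rose, and Stxbp3, which fell, against 1.55% of 32851 promoters. The GC box was in 62.3% of them and in 32.7% of all promoters, and the E-box in 14.8% and 6.02%. The 61 promoters also had a higher median GC content, 61.2% against 52.4% over all promoters, which include those of genes not tested here. The shares were not adjusted for this. The median GC content was 65.6% for 10 promoters of higher genes and 64.4% for 11 of lower genes. A match is of letters alone. Promoters of the called genes Rims2, Rims4, Syt7, Vamp2, Vamp3 and Vamp7 were not analysed here.

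Genes of neighbouring steps of release were read in lists of their own, for all cocaine against all saline libraries. Over all genes tested, 17% were higher and 14.2% lower in this comparison. Those called lower in these lists are not named here. Of 9 active zone scaffold genes, 6 were higher and none lower, with estimates above 0 for all 9: Pclo 0.26, Bsn 0.25, Ppfia3 0.24, Erc1 0.20, Ppfia1 0.18 and Erc2 0.15 (adjusted p from 0.0015 to 0.0449). Bassoon and Piccolo (Bsn, Pclo) are the large proteins that organise the release site. Among 13 tested genes of SNARE recycling and Rab3 effectors 3 were higher and 1 lower, with the vesicle GTPase Rab3a at 0.17 (SE 0.038, adjusted p = 0.00298) and the SNARE-separating ATPase Nsf at 0.09 (SE 0.054, adjusted p = 0.248). Of 11 vesicle membrane genes, 1 was higher, synaptophysin (Syp) at 0.15 (SE 0.038, adjusted p = 0.00668), and 2 were lower. Vesicle endocytosis had 4 higher and 1 lower of 12, and presynaptic calcium channels 1 of each of 7, with Cacna1a, the P/Q-type channel that couples to release, at 0.31 (SE 0.072, adjusted p = 0.00437).

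Markers of neurons and of other cells differed in the same comparison, where 17% of all genes tested were higher and 14.2% lower. Of 10 pan-neuronal genes 6 were higher and none lower, with Nefm at 0.76 and Rbfox3 at 0.35 on the log2 scale. Their summed level was 1203 to 1239 scaled TPM in control saline, 1175 to 1259 in cKO saline, 1271 to 1498 in control cocaine, and 1248 and 1367 in cKO cocaine, with none of the 10 at 0. Of 8 thalamic neuron markers 3 were higher, and Slc17a6 was at -0.04 (SE 0.096, adjusted p = 0.798). Summed over these 8 markers, the group means after saline were 514.3 scaled TPM (labelled control) and 515.2 (labelled cKO). After cocaine both means were higher, at 592.6 and 581.4. Single libraries overlapped, with sums as high as 613.3 after saline and as low as 515.6 after cocaine. Of 5 tested hypothalamic genes all had a negative estimate and 1 passed, Avp at -2.90. Slco1a4, 1 of 6 tested endothelial and mural genes, was lower at -0.27, Aldh1l1, 1 of 7 astrocyte genes, was higher at 0.25, and 0 of 8 oligodendrocyte genes passed. Their part in the changes was not tested.

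In the libraries labelled control, cocaine against saline gave 16 higher genes of the 64 (25.0%) and 5 lower (7.81%), where 15% and 9.35% of all genes tested were higher and lower. Were genotype to follow Maged1 and not the labels, the groups compared here would differ in genotype as well as in treatment. Effects of genotype and treatment could then not be told apart. On TPM as deposited 0 were higher (background 0.831%) and 38 lower (background 70.6%). Syn1 at 0.53 (SE 0.076, adjusted p = 0.00058) and Cplx1 at 0.51 (SE 0.084, adjusted p = 0.00132) were the 2 past 0.5, a minimum that 1.54% of all genes passed upward and 1.56% downward (0 of the 64). Stx4a was at 0.38 (SE 0.084, adjusted p = 0.00677), Rims4 at 0.35 (SE 0.092, adjusted p = 0.0161) and Vamp2 at 0.31 (SE 0.052, adjusted p = 0.00149). Syt1 and Snap25, which did not pass over all libraries, passed here at 0.28 (SE 0.054, adjusted p = 0.00317) and 0.25 (SE 0.08, adjusted p = 0.0382), and 18 of the 64 genes had every cocaine library above every saline library (background 14.9%) and 7 had every one below (10.3%). Vamp4 at -0.40 (SE 0.074, adjusted p = 0.00265), Stxbp5l at -0.36 (SE 0.11, adjusted p = 0.0331), Syt4 at -0.26 (SE 0.073, adjusted p = 0.0223), Stx16 at -0.25 (SE 0.037, adjusted p = 0.000676) and Stxbp4 at -0.18 (SE 0.053, adjusted p = 0.0277) were lower. Syn1, Cplx1, Vamp2, Stx4a, Syt1, Rims4, Vamp4 and Stx16 passed in each of 8 fits without 1 library of these groups, Syt4 in 6, Snap25 and Stxbp4 in 3, and Stxbp5l and Unc13a in 2. Without the second control saline library 10 genes were higher (1627 over all genes, against 2015 with every library). Without the first control cocaine library 10 were lower (1519 over all genes, against 1260). Without the third or the fourth control saline library, or the second or the third control cocaine library, 3 were lower. Over all genes 934, 939, 1019 and 1010 were then lower. In these groups markers of cells beside the thalamic neurons differed too: 8 hypothalamic genes summed to 129 to 456 scaled TPM after saline and 1.74 to 126 after cocaine (3 of 5 tested were lower), and 8 oligodendrocyte genes to 1457 to 1757 and 1627 to 2526 (2 of 8 higher). Sums of 6 choroid plexus genes were 15.7 to 1450 after saline and 5.85 to 24.8 after cocaine. For 8 ependymal genes they were 42.9 to 46.7 and 7.80 to 44.5, and for 6 habenula genes 49.0 to 72.8 and 7.96 to 165.5. None of these genes was at 0 in all libraries of either group. Their part in the result was not tested.

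In the libraries labelled cKO, 6 genes were higher (9.38%; background 9.19%) and 5 lower (7.81%; background 10.7%), and on TPM as deposited 0 (background 0.794%) and 42 (background 60.3%). As under the control label, these groups would also differ in genotype if it followed Maged1. Syn1 was at 0.51 (SE 0.093, adjusted p = 0.00328), close to its value in the labelled control. Syt5, Syt17, Syn2, Stx4a and Vamp2 also rose, at 0.43, 0.40, 0.34, 0.32 and 0.23. Vamp7 was lowest at -0.60 (SE 0.088, adjusted p = 0.000941), followed by Vamp3 at -0.50 (SE 0.10, adjusted p = 0.00569), together with Syt14, Stx12 and Stx16 at -0.33, -0.26 and -0.14. Past 0.5 were Syn1 upward (background 1.83%) and Vamp7 downward (1.24%). Both cocaine libraries were above all 4 saline libraries for 11 genes (background 21.1%) and below for 13 (22.2%). Calls made in both labelled genotypes were those of Syn1, Vamp2 and Stx4a upward, which is 18.8% of the 16 and 50.0% of the 6, and of Stx16 downward, 20.0% of each 5. The cocaine group has 2 libraries. Without the first of them 3 genes were higher and 4 lower, and without the second 0 and 2, with Syn1 at an adjusted p of 0.0625; the library left is then assumed to vary like those of the other groups. Without the second cKO saline library 3 were higher (1030 over all genes, against 1238 with every library). Vamp7 passed in 6 of 6 fits without 1 library of these groups, Syn1, Vamp2, Syt5, Vamp3, Stx12 and Syt14 in 5, Syt17 in 2, Stx4a and Syn2 in 1, and Stx16 in 0. For 2 against 4 libraries a two-sided exact permutation test of single values cannot give a p below 0.0667. Markers of other cells differed between these groups as well. Of 6 tested endothelial and mural genes 3 were lower (Rgs5, Cldn5 and Slco1a4 at -0.38, -0.43 and -0.47), and the list summed to 46.9 to 53.5 scaled TPM after saline and to 40.5 and 43.2 after cocaine. All 8 ependymal genes had a positive estimate (median 0.97, 1 higher), with sums of 7.41 to 32.2 after saline and 37.3 and 51.5 after cocaine, as had all 6 habenula genes (median 0.79, 0 called). Oligodendrocyte genes had a median of -0.31 with 0 called, and 2 of 7 astrocyte genes were higher. None of these genes was at 0 in all libraries of either group. Their part in the result was not tested.

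**Figure D5:**
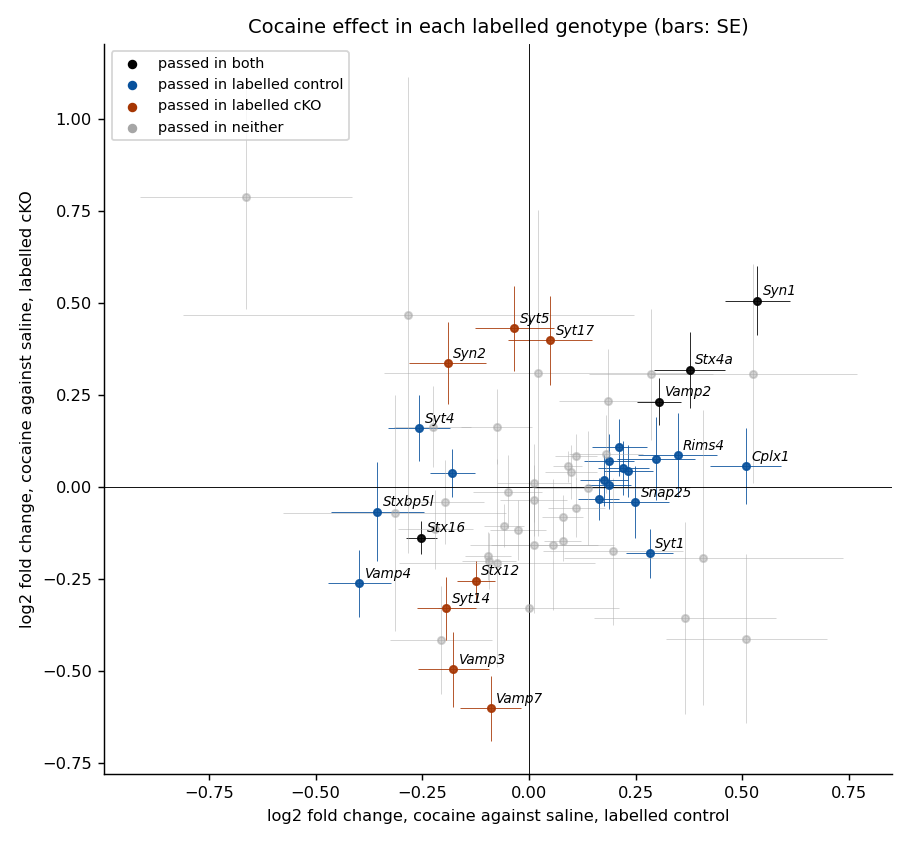
Log2 fold change of cocaine against saline in the libraries labelled control (horizontal) and labelled cKO (vertical), 1 point for each of 62 genes with SE bars. Syn1, Stx4a, Vamp2 and Stx16 passed in both, Cplx1 and Syt1 lie to the right near or below the horizontal line, and Vamp7 and Vamp3 are lowest.

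The cocaine against saline difference under the cKO label was compared with that under the control label as the interaction. In it 0 of the 64 genes were higher (background 0.564%) and 2 lower (background 0.787%). Past 0.5 were 0 upward (background 0.468%) and Vamp7 downward (0.386%). For Syt1 it was -0.46 (SE 0.086, adjusted p = 0.0298). Syt1 was at 170.1, 163, 180.5 and 180.1 under the label control saline, 216, 204, 213 and 206 under cKO saline, 206, 200.4, 204 and 236 under control cocaine, and 178 and 192 under cKO cocaine. After saline the labelled cKO libraries were all above the labelled controls, and after cocaine the 2 labelled cKO libraries were below the 4 labelled controls. For Vamp7 it was -0.51 (SE 0.11, adjusted p = 0.0488), on scaled levels of 9.18, 7.80, 8.88 and 8.62 under the label control saline, 11.3, 9.70, 10.04 and 10.4 under cKO saline, 8.70, 7.17, 8.51 and 7.93 under control cocaine, and 7.11 and 6.20 under cKO cocaine. Its 4 cKO saline values were above all others and its 2 cKO cocaine values below. Syn2, Syt4 and Cplx1 did not pass, at 0.53 (SE 0.14, adjusted p = 0.0774), 0.42 (SE 0.12, adjusted p = 0.0813) and -0.45 (SE 0.13, adjusted p = 0.0939). Over 14 fits that each left out 1 library, Syt1 passed in 8 and Vamp7 in 2, and 0 genes were lower without either cKO cocaine library, the first or second control saline library, or the first or the third cKO saline library. Since Maged1 goes against the labels after cocaine, these differences are between labelled groups and say nothing on the direction of a genotype. Were genotype to follow Maged1 and not the labels, the interaction would not be a difference between 2 cocaine effects. Every control cocaine and cKO saline library, those low in Maged1, had Syt1 at 200.4 or more. Every other library had Syt1 at 192.1 or less. Vamp7 was not split in this way. The interaction by which Syt1 was picked sets these same groups against each other, so the split of Syt1 restates those values. The share of all genes split so was not counted, and a link to Maged1 was not tested. Cell type markers differed between these groups too. The 8 oligodendrocyte genes summed to 1457 to 1757 scaled TPM in control saline, 1802 to 2558 in cKO saline, 1627 to 2526 in control cocaine, and 1926 and 1954 in cKO cocaine, with none at 0 and none of the 8 passing the interaction (8 of 8 negative, median -0.56). Of 5 tested hypothalamic genes 3 were higher in the interaction, of 8 thalamic neuron genes 1 was (Calb2 at 1.62), and of 7 astrocyte genes 1. Estimates were positive for all 8 ependymal and all 6 habenula genes (medians 1.59 and 1.23), with 0 called. Their part was not tested.

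No gene of the 64 passed between the labelled genotypes. After saline, limma called 0 higher and 0 lower (background 0.0594% and 0.0965%), with 13 of the 64 at an unadjusted p under 0.05 (background 16.7%). All cKO libraries were above all control libraries for 8 genes, Syt1, Syt2 and Vamp1 among them (background 7.02%), and below for Syt5 (5.8%). The smallest adjusted p-values were those of Syt1 at 0.27 (SE 0.054, adjusted p = 0.0645), Syt4 at -0.28 (SE 0.073, adjusted p = 0.11) and Cplx1 at 0.31 (SE 0.084, adjusted p = 0.111). After cocaine there were likewise 0 and 0 (background 0.0148% and 0.0445%) and 10 at an unadjusted p under 0.05 (background 12.1%), led by Sv2a at -0.17 (SE 0.054, adjusted p = 0.286). Here 6 genes had all cKO above all control values (background 7.03%) and 7 all below (10.6%). Syn1, which rose with cocaine in both labelled genotypes, was at 0.05 between them after saline (95% interval -0.11 to 0.22) and at 0.02 after cocaine (-0.18 to 0.22).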

How the data were processed

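The authors mapped paired-end reads to GRCm38.p4 (mm10) with STAR 2.5.3a, quantified transcripts with Salmon and deposited TPM per gene symbol, 1 table per library. The deposited tables list TPM alone, whose listed genes sum to 312659 to 377401 per library, so reads per gene and counting error are unknown. A decimal comma in 2 of the deposited tables of TPM was taken for a point. Genes with at least 1 TPM in 3 libraries were kept, TPM were divided by trimmed-mean factors (trims of 30% and 5%), and log2 of scaled TPM plus 0.5 was fitted in limma 3.58.1 (R 4.3.3) with an intensity trend, 1 fit for all 4 groups, and Benjamini-Hochberg adjustment over 13471 genes. The comparison over all libraries had treatment as its only term. Fold changes on this scale understate those of low genes. The code was tested on simulated data. The samples are described as independent, but no animal is named for them, so p-values measure the spread between these libraries.

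Members and gene lists were chosen with earlier results of these data known. Named were Maged1, the main isoforms of neuronal release, the 5 largest rises and falls past the threshold in each comparison, the 5 highest levels, the top member of each role and those next to the filter, and others were named after their values were seen. The values of 2 of the 64 genes are not reported here, and these genes enter the counts alone. Gene positions, lengths and GC content come from GENCODE M21 on GRCm38, and GC content and length were known for 97.9% of the genes tested. Promoters come from RefSeq (GRCm38.p6), matched by symbol for 48 of 64 genes. Alternatives were other scalings, pseudocounts, filters, a replicate block, genotype tags, agreeing labels, the compared groups alone, removed GC and length trends, and each library left out. Removing the trends in the comparisons by labelled genotype, removing 1 trend alone, and leaving out either cKO cocaine library in the comparisons that use the genotype were chosen after seeing the data.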

Additional observations from a re-analysis of the deposited data

Results flagged for a closer look

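Of 93 groups of 4 libraries checked for the named genes, 12 held 1 library far from the other 3 by Dixon's criterion, which chance meets in about 1 of 20. In control saline these were the second library for Cplx1 (153.4 scaled TPM, the others 180.8 to 186.1) and Syt5 (28.88, the others 23.12 to 23.58), and the first for Vamp2 (205.5, the others 225.0 to 227.4) and Syt14 (2.973, the others 3.564 to 3.674). In cKO saline the fourth library stood apart for Cplx2 (65.96, the others 31.29 to 35.03), Stxbp5l (12.4, the others 9.074 to 9.546) and Stx12 (33.23, the others 34.3 to 34.52), and the third for Rims1 (31.45, the others 29.85 to 30.06). In control cocaine the fourth library stood apart for Syt1 (235.6, the others 200.4 to 205.8) and Syt14 (3.337, the others 2.79 to 2.859), the first for Rims4 (8.362, the others 9.703 to 9.878) and the third for Vamp3 (7.925, the others 7.196 to 7.254).

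For 2 genes the cocaine against saline difference was not the same under the 2 genotype labels by the interaction test. The log2 difference (labelled cKO minus labelled control) was -0.4634 for Syt1 and -0.5129 for Vamp7. Maged1 goes against the labels after cocaine, so it is unknown whether these are differences between cocaine effects.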

How the results depend on the processing

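TPM as deposited lie lower after cocaine for the median gene of all tested, by log2 values of -0.34 over all libraries, -0.34 in the labelled control and -0.35 in the labelled cKO, so positive estimates of about this size or smaller change sign there by construction. On these TPM, cocaine against saline gave 0 higher and 47 lower genes over all libraries, 0 and 38 in the labelled control and 0 and 42 in the labelled cKO, and 0 lower in the interaction. The sign then changed for 14 named genes over all libraries, with log2 values of Cplx1 -0.084, Rims1 -0.24, Rims3 -0.23, Rims4 -0.13, Snap25 -0.28, Snap47 -0.31, Snap91 -0.32, Stx4a -0.0299, Syn2 -0.37, Syt1 -0.31, Syt9 -0.051, Unc13a -0.27, Vamp1 -0.38 and Vamp2 -0.12. It changed for 10 in the labelled control (Rims1 -0.15, Rims4 -0.012, Snap25 -0.13, Snap47 -0.29, Snap91 -0.28, Sv2a -0.30, Syt1 -0.098, Syt17 -0.31, Unc13a -0.20 and Vamp2 -0.075) and for 10 in the labelled cKO (Cplx1 -0.33, Rims1 -0.33, Rims3 -0.29, Snap47 -0.33, Snap91 -0.34, Stx4a -0.053, Stxbp4 -0.30, Syn2 -0.044, Unc13a -0.36 and Vamp2 -0.15). With the GC content and length trends removed, 9 were higher and 4 lower over all libraries, 10 and 3 in the labelled control and 2 and 2 in the labelled cKO, and 1 lower in the interaction. Without the GC content trend alone 9 and 3 were called over all libraries. A minimum log2 change of 0.5 left 1 and 0 over all libraries, 2 and 0 in the labelled control, 1 and 1 in the labelled cKO, and 1 lower in the interaction. With genotypes taken from the tags the labelled control gave 7 and 3, and with agreeing labels alone 5 and 2, the labelled cKO 0 and 1, and the interaction 0 lower under both. Over all genes in each fit the counts moved as well. In the labelled control the main fit called 2015 higher and 1260 lower. There the counts were 1485 and 902 without the trends, 1376 and 927 with the tags, and 690 and 321 with agreeing labels. In the labelled cKO the same fits gave 1238 and 1441, 569 and 561, 866 and 936, and 314 and 394. In the interaction 106, 78, 1 and 0 were lower. Without a filter 3 genes were higher in the labelled cKO. The interaction had 1 lower gene without a filter, with median-of-ratios scaling or without the intensity trend. A filter at a mean of 5 TPM gave 1 higher gene between labelled genotypes after saline (28 over all genes in that fit). A fit of the compared groups alone gave 1 lower after cocaine (3 over all genes). Apart from that shift the causes were not tested.

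The replicate numbers did not pair the libraries: deviations from group means had a mean correlation of -0.0139 over 18 pairs with the same number and 0.0046 over 54 with different numbers. With the number as a block, 12 were higher and 9 lower over all libraries, 15 and 3 in the labelled control, 4 and 4 in the labelled cKO, and 1 lower in the interaction. Over all genes the block left 2089 higher and 1673 lower over all libraries, against 2291 and 1907 in the main fit. In the labelled control it left 1724 and 1077, in the labelled cKO 933 and 1008, and in the interaction 18 lower.

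Leaving out 1 library at a time, the counts ran from 8 to 17 higher and 8 to 11 lower over all libraries, 10 to 18 and 3 to 10 in the labelled control, 0 to 7 and 2 to 5 in the labelled cKO, and 0 to 1 and 0 to 2 in the interaction. Between labelled genotypes they were 0 higher throughout, 0 to 1 lower after saline (1 without the third cKO saline library) and 0 lower after cocaine. The interaction had 1 higher gene without the first control cocaine or the third cKO saline library. Counts over all genes ran from 1982 to 2366 higher and 1588 to 1949 lower over all libraries. In the labelled control they ran from 1490 to 2209 and 934 to 1519. Over all named values and settings, 3615 kept direction and side of the threshold, 215 no longer passed, 53 newly passed and 34 changed sign.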
